A study of Mus musculus with 75 samples.

Results

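The genes described here encode the proteins of the cytosolic ribosome, the particle that translates messenger RNA. They were chosen by name: Rpl or Rps followed by a digit, or Rplp0, Rplp1, Rplp2 or Rpsa. A name ending in -ps was dropped (1 gene), as were the Rps6k kinases (10 genes). Of 26218 genes in the table, 85 names remained, and all 85 were found in the RefSeq gene table. A core of 77 encodes the standard ribosomal proteins, 46 of the large subunit and its stalk and 31 of the small subunit. The other members are the germline paralogs Rpl10l and Rpl39l, kept apart, 5 further paralogs (Rpl22l1, Rpl7l1, Rpl3l, Rpl36al and Rps27l) and Rps19bp1, which matches by name but encodes a protein that binds a ribosomal protein.

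A ribosome takes up nearly all of its proteins in equal numbers, and a cell that grows spends a large part of its transcription on them. Most of their messenger RNAs start with a C followed by a run of pyrimidines, the TOP element, through which mTOR signalling and LARP1 set their translation. A few members have duplicates that are used in particular tissues: Rpl10l and Rpl39l are autosomal copies of X-linked genes and are best known from the male germ line, where the X chromosome is silenced in meiosis.

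The series holds 75 mouse libraries in 37 groups, made by sequencing the 3' ends of transcripts amplified from 1 ng of RNA. Embryonic germ cells (22 libraries, 11 groups of 2) came from ICR:C57BL/6 embryos, sorted by a Dppa3-EGFP reporter at E9.5 to E13.5 and by a Ddx4-RFP reporter at E14.5 and E15.5, so stage and reporter cannot be told apart across that step. Sex is labelled from E12.5 on. Primordial germ cell-like cells (PGCLCs) were derived from embryonic stem cells carrying Prdm1-mVenus and Dppa3-ECFP and grown on m220 feeder cells, with the factors of the female fate given from culture day 3. From the 129S1:C57BL/6 line come 22 libraries, 2 in each group. Its groups are day 0, CT day 3 and then, on each of days 5, 7 and 9, the conditions CT, RA and RB, names that the labels do not spell out. A single further library of that line is named 0R3B. DBA/2:C57BL/6 PGCLCs were wild type (WT, 2 libraries a group) or Stra8-/- (KO, 4 libraries a group: 2 of line SK1 and 1 each of SK2 and SK3), at CT day 3 and RB days 5, 7 and 9. The 6 remaining libraries, 1 in each group, came from a C57BL/6 line that also carries Gtrosa26tm1Sor/0. Whether replicates are separate animals or cultures is not in the labels, so each p-value measures only the spread between these libraries.

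Levels are in RPM, the reads-per-million value that the authors deposited. The libraries were sequenced to an estimated 1.08 to 15.6 M reads, with a median of 3.12 M, at which 3 reads are worth 0.192 to 2.78 RPM. Replicates correlated with Pearson r of 0.978 to 0.993 across all genes, which are not independent replicates. Summed RPM of the germ cell markers was at least 1764 in every library, and that of the 10 gonadal somatic markers at most 69.6 RPM, reached in E14.5 males. Amh was at 0 in the E14.5, E15.5 and day 9 groups, but in E14.5 and E15.5 males it was the only 1 of the 10 at 0. At RB day 9, Stra8 stood at 1813 and 1717 RPM in the WT libraries, at 105 and 122 in SK1, at 77.9 in SK2 and at 483 in SK3. Which part of Stra8 is deleted is not in the labels, and reads from outside it would still be counted. In bulk samples fewer cells of a type and less RNA per cell cannot be told apart.

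The sequences show what sets the duplicates apart from their parents and what the gene starts share. A read can be assigned to a duplicate only where its sequence differs from the parent, so the coding sequences of both germline paralogs are shown against their parents, with the bases that differ between the pair in capitals. Rpl39 (chrX:37082518-37085222) and Rpl39l (chr16:10170197-10174911) both have 153 coding bases, of which 23 differ. Rpl10 (chrX:74270816-74273135) and Rpl10l (chr12:66283379-66284401) both have 642, of which 98 differ; the last 150 of them, coding bases 493 to 642, hold 18 of the differences. Coordinates are those of the genes in RefSeq on GRCm38.p6, and the coding sequences were read from the GENCODE transcripts of GRCm38.
Rpl39: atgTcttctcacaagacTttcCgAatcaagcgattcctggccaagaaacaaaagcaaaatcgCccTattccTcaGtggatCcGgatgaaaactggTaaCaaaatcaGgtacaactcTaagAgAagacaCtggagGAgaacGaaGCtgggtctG
Rpl39l: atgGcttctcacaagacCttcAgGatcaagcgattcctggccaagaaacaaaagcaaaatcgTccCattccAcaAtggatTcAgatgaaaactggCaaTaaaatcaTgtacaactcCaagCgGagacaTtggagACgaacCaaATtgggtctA
Rpl10: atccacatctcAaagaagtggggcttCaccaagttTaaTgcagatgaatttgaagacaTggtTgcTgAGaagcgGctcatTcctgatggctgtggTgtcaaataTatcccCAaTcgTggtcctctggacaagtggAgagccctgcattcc
Rpl10l: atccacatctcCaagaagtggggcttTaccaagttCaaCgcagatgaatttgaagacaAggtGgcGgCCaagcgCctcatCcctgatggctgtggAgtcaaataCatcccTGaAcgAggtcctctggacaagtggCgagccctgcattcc
Identity between these coding sequences was 84.7% for Rpl10 and Rpl10l and 85.0% for Rpl39 and Rpl39l. In the last 300 bases of a transcript, where the reads fall, the longest run shared with the partner's transcript was 23 bases for Rpl10, 9 for Rpl10l, 25 for Rpl39 and 38 for Rpl39l. Other near-identical copies and processed pseudogenes of ribosomal protein genes exist, and how the authors counted reads shared with them is not given in the sources used here, so the level of any single member is uncertain to that extent.

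A window at the gene start was in the RefSeq promoter table for 57 of the 77 core genes. A C followed by at least 5 pyrimidines and beginning within 5 bases of the start was found on the gene's own strand in 24 of the 57 (42.1%), against 2759 of 27025 genes in that table (10.2%). In the 300 bases from 250 before to 50 after the start, on either strand, the letters CCGGAAG were in 40.4% of the core promoters and 9.12% of all promoters, GGGCGG in 59.6% and 35.9%, AAGATGG in 14% and 6.48%, TTTCCTTTT in 5.26% and 1.43%, and TATAAA in 8.77% and 14.2%. These are matches of letters and not measured binding. The 30 bases around the annotated start (15 on each side, gene strand) are given for members whose values are followed below: 4 with the run, in capitals, and 5 without it.
Rps27 (chr3:90213634-90213663, minus strand): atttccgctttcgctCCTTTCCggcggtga
Rpl38 (chr11:114668565-114668594, plus strand): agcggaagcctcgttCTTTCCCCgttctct
Rps2 (chr17:24720048-24720077, plus strand): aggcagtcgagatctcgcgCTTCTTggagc
Rps23 (chr13:90923107-90923136, plus strand): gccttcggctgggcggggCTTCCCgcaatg
Rpl10 (chrX:74270801-74270830, plus strand): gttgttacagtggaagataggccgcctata
Rpl10l (chr12:66284387-66284416, minus strand): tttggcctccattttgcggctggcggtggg
Rpl39l (chr16:10170213-10170242, plus strand): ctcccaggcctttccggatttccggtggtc
Rps4x (chrX:102189377-102189406, minus strand): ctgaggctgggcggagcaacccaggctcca
Rplp0 (chr5:115559452-115559481, plus strand): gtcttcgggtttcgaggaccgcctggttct
No match says only that these letters are not in this window. Members with and without the run at the start that RefSeq annotates fell in comparisons below: Rps2 and Rpl38 have it, and Rplp0 and Rps4x do not. Rps23, which has it, rose in some comparisons and fell in others. Whether the run bears on these changes was not tested.

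The 77 core genes together held between 14.4% and 27.9% of the gene signal of a library (median 21.8%). In the embryo the share was 24.6 ± 0.311% at E9.5 (SD, n = 2) and 24.2 ± 0.136% at E11.5. It was 22.4 ± 0.439% in males and 23.3 ± 0.411% in females at E12.5, and 21.5 ± 0.314% and 20.4 ± 1.05% at E15.5. At E15.5 all 4 libraries lay below both E11.5 libraries (24.1 and 24.3%), and the sexes did not overlap, with females at 19.7 and 21.2% and males at 21.3 and 21.7%.

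In culture the lowest replicated shares came at RB day 9. In the 129S1:C57BL/6 line CT day 9 held 25.8 and 26.6%, RA day 9 21.3 and 25.6%, and RB day 9 19.2 and 21.9%. WT cells went from 19.4 and 19.5% at CT day 3 to 16.3 and 16.4% at RB day 9, and KO cells from 20.1 ± 0.852% to 17 ± 0.672% (SD, n = 4). The ratio of RB to CT at day 9 was 0.784, that of RB day 9 to CT day 3 was 0.842 in WT and 0.846 in KO, and that of female E15.5 to E11.5 was 0.845. All 4 KO libraries of day 9 lay below all 4 of day 3 (exact permutation test, two-sided, p = 0.0286, the smallest that 4 against 4 can give). That test took the libraries as independent, but the same lines stand at both days and SK1 gives 2 of each 4. It therefore measures no spread between lines, and no test matched by line was run. With 2 libraries in a group no permutation test over samples can reach 0.05, so the other shares are given without a test. Replicates lay far apart at day 5, at 20.2 and 27.2% under CT, 22 and 27.5% under RA, and 21.8 and 27.8% under RB. Replicate 1 was the lower in all 3 conditions of day 5 and the higher in all 3 of day 9.

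**Figure D1:**
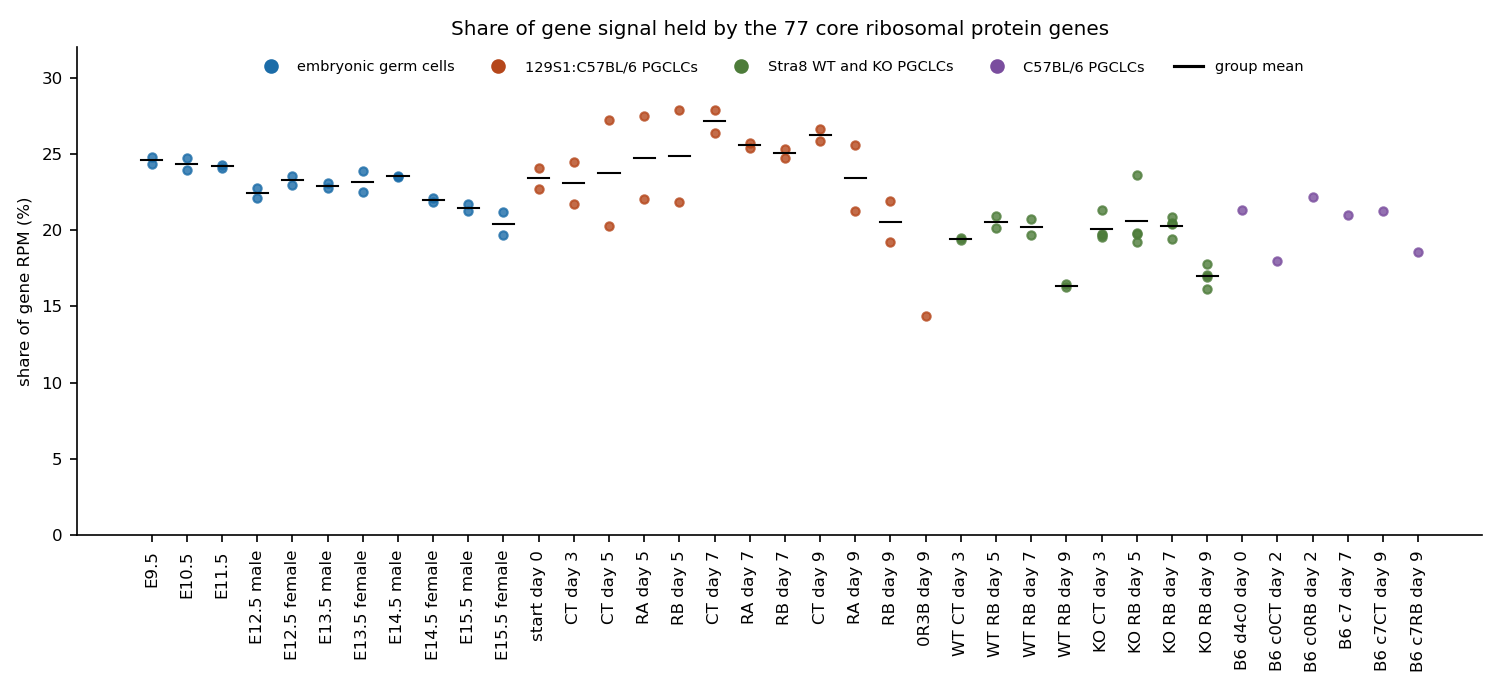
Share of the summed gene RPM held by the 77 core ribosomal protein genes (vertical axis, %) in each library, by group (horizontal axis), with points for libraries and bars for group means. RB day 9 of the 129S1:C57BL/6 line (19.2 and 21.9%) lies below CT day 9 (25.8 and 26.6%), and RB day 9 of WT and KO below all other groups of that experiment.

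Over the 30 replicated groups, core members at the median varied less than all genes of high level, a set that includes the core. The SD of its group means on the log2(RPM + 1) scale had a median of 0.30 over the core, against 0.44 over the 1681 genes with a mean of at least 100 RPM. These groups come from experiments of different strain, so the SD also holds differences between experiments, and the sets were not matched for level. Rpl7a (0.11), Rps27a, which encodes a ribosomal protein fused to ubiquitin, and Rpl23 varied least. Rpl38 (0.84), which is known for its part in patterning the axial skeleton, Rps27 and Rps29 varied most. Each of them was highest at E9.5 and lowest in a group of the Stra8 experiment. Rpl10l (1.18) and Rpl39l (1.46) varied more than any core member, and Rpl3l, best known from muscle, never exceeded 15.9 RPM. Rps19bp1 stayed between 23.3 and 72.4 RPM in all 75 libraries.

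The sexes came apart most in duplicated genes. From E11.5 to E15.5 the X-linked Rpl10 and the autosomal Rpl22 and Rps27l fell in male germ cells, while Rpl10l, Rpl22l1 and Rpl39l rose in RPM (with spike-in scaling these 3 were not called, and Rpl39l turned to the other side of 0). In females Rps27l rose over that time by 0.63 ± 0.19, and Rpl10 (0.15, adjusted p = 0.21) and Rpl22 (-0.12, adjusted p = 0.5) were not called. This rise of Rps27l was not followed with spike-in scaling, which moved the median of all genes from 0.10 to -0.68 in that comparison. Here and below, rose, fell, higher and lower are used of genes with a limma p below 0.05 after Benjamini-Hochberg adjustment over all genes tested, referred to as called. Fold changes are log2 values on the log2(RPM + 1) scale and carry their standard error.

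Rpl10 encodes the protein that completes the large subunit beside its catalytic centre. It was at 4519 and 4327 RPM at E11.5. Male libraries had 3478 and 3453 RPM at E13.5, 1556 and 1237 at E14.5 and 862 and 676 at E15.5. Female libraries had 4587 and 4511, 6152 and 5335, and 4785 and 5046 at the same stages. From E13.5 on every male library was below every female library. Female exceeded male by 2.05 ± 0.11 at E14.5 (limma, adjusted p = 1.1e-13) and by 2.68 ± 0.11 at E15.5 (adjusted p = 4.3e-16), and the difference itself grew between E12.5 and E15.5 by 2.55 ± 0.15 (adjusted p = 2.3e-12).

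Rpl10l moved the other way. It rose from 8.79 and 12.8 RPM at E9.5 through 64.2 and 74.4 at E10.5 to 161 and 170 at E11.5 (3.84 ± 0.15, limma, adjusted p = 4e-15), before sexes are labelled. Blood and endothelial markers summed to 3590 to 3727 RPM at E9.5 and 114 to 128 at E11.5, and their part in this rise was not tested. Males had 89.8 and 90.6 RPM at E13.5, then 522 and 505 at E14.5 and 442 and 484 at E15.5, while females had 81 and 105, 122 and 129, and 97.4 and 125. The sexes overlapped at E13.5 and were far apart from E14.5. Male E15.5 exceeded E11.5 by 1.48 ± 0.15 (adjusted p = 9.2e-09), a rise of 0.10 that was not called when libraries were scaled to their spike-in RNA. The difference between the sexes at E15.5 was -2.06 ± 0.15 (adjusted p = 2e-11), and it was called under every scaling tried.

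Rpl39 encodes a small protein of the exit tunnel, and Rpl39l its germline copy. Rpl39l was at 35.4 and 31.4 RPM at E9.5, 116 and 144 at E10.5 and 376 and 410 at E11.5, a rise of 3.52 ± 0.17 (limma, adjusted p = 3e-13). The part of the blood and endothelial signal of E9.5 in this rise was not tested either. Male libraries had 846 and 791 RPM at E14.5 and 767 and 936 at E15.5, and female libraries 179 and 212, then 120 and 194. Every male library was above every E11.5 library, and every female library below. Male E15.5 was 1.11 ± 0.17 above E11.5 (adjusted p = 5.3e-06), a direction that turned to -0.28 with spike-in scaling, and female E15.5 1.35 ± 0.17 below it (adjusted p = 2.2e-07). The female libraries were already lower at E13.5, by 0.75 ± 0.17 (adjusted p = 0.0018), a call lost without female replicate 2 (adjusted p = 0.077) and with spike-in scaling (-0.29, adjusted p = 0.44).

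Rpl22 encodes a large-subunit protein that binds RNA outside the ribosome too, and Rpl22l1 its close relative. Rpl22 was at 1749 and 1690 RPM at E11.5, at 579 and 865 in E14.5 males and at 485 and 359 in E15.5 males, against 1156 and 1362, then 1426 and 1760, in females. Rpl22l1 was at 1003 and 967 RPM at E11.5, 2375 and 2755 in E14.5 males and 2786 and 2783 in E15.5 males, against 799 and 956, then 1123 and 1127, in females. Neither gene had overlapping sexes at these stages, and the directions were opposite. At E15.5 female exceeded male by 1.92 ± 0.15 for Rpl22 (limma, adjusted p = 7e-11) and was 1.31 ± 0.09 lower for Rpl22l1 (adjusted p = 1.5e-11).

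Rps27l, a paralog of Rps27 known as a target of p53, was at 510 and 508 RPM at E11.5. It was at 105 and 178 RPM in E14.5 males and at 170 and 158 in E15.5 males, and at 468 and 657, then 764 and 818, in females. The sexes were apart at both stages, by 2.01 ± 0.19 at E14.5 (limma, adjusted p = 1.8e-09) and 2.26 ± 0.19 at E15.5 (adjusted p = 1.7e-10). Its parent Rps27 had 372 and 794 RPM in E14.5 males and 309 and 460 in females, which overlap. Of the other paralogs, Rpl36al was 0.05 ± 0.10 higher in females at E14.5 (adjusted p = 0.66) and 0.16 ± 0.10 at E15.5 (adjusted p = 0.16), neither of which was called. Gonadal somatic markers summed to 46.0 to 69.6 RPM in E14.5 males and 9.86 to 15.0 in females (10 markers, 1 at 0 in males and 4 in females), and their part in these differences was not tested.

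**Figure D2:**
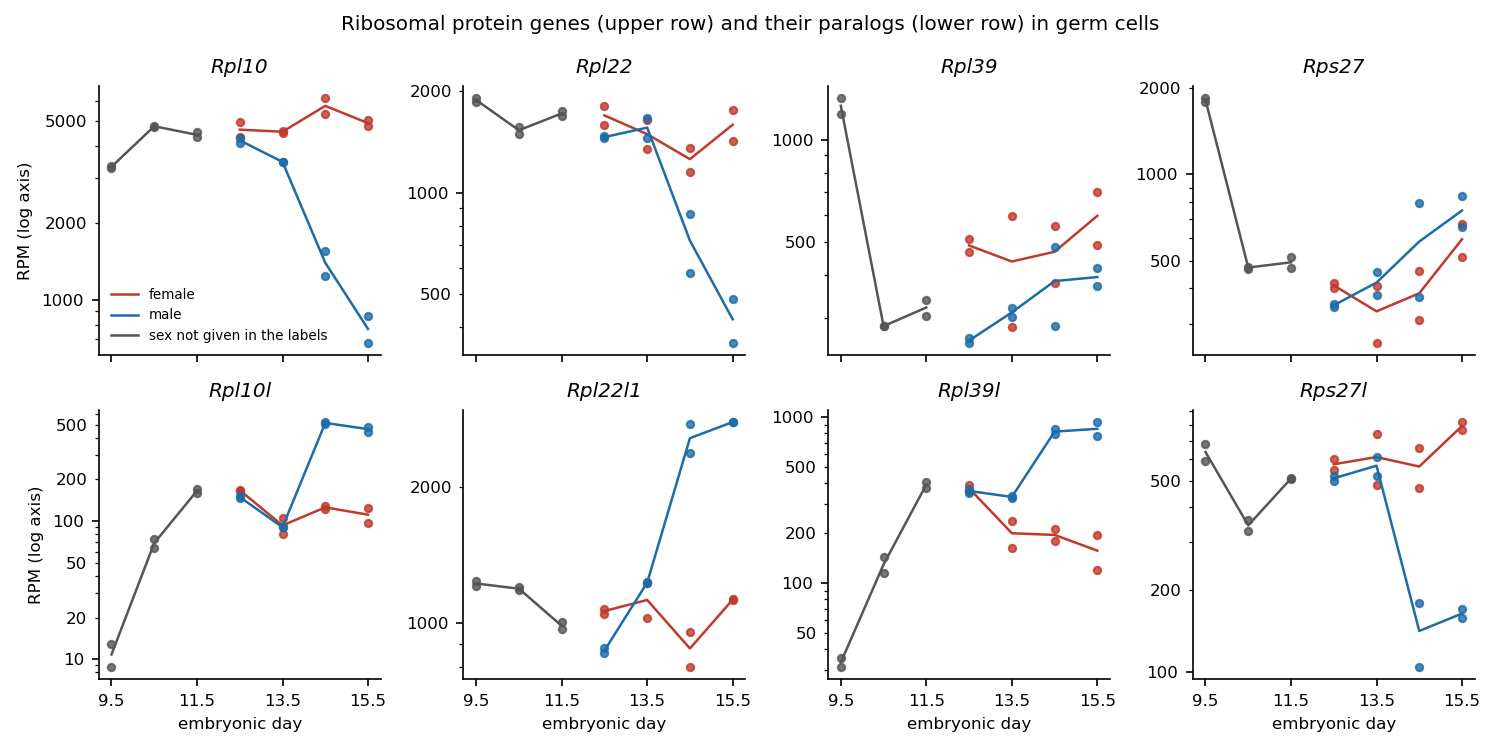
RPM (vertical axes, logarithmic) of Rpl10, Rpl22, Rpl39 and Rps27 in the upper row and of Rpl10l, Rpl22l1, Rpl39l and Rps27l in the lower row, by embryonic day (horizontal axis). Points are libraries and lines join group means for females, males and germ cells whose sex the labels do not give. Male Rpl10 and Rpl22 drop after E13.5, to 676 to 862 and 359 to 485 RPM at E15.5, as male Rpl10l, Rpl22l1 and Rpl39l climb.

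The X chromosome holds 4 core genes: Rpl10, Rpl36a, Rpl39 and Rps4x. The gap between the sexes narrowed with stage in Rps4x and widened in Rpl10. Rps4x, which encodes a small-subunit protein, had 6421 and 6569 RPM in E12.5 females against 3845 and 3702 in males. At E13.5 the values were 6888 and 6520 against 3554 and 3550, at E14.5 5243 and 5022 against 4315 and 4003, and at E15.5 4053 and 4317 against 4003 and 4162. Females were apart from males up to E14.5 and overlapped them at E15.5. In order of stage the differences were 0.78, 0.92, 0.30 and 0.04, with a standard error of 0.07. The limma test called the first 3 of them, with adjusted p-values of 2.2e-07, 3.4e-09 and 0.001, and not the last (adjusted p = 0.68). With spike-in scaling the calls of E12.5 (0.78, adjusted p = 0.11) and E14.5 (0.06, adjusted p = 0.87) were lost. The Rps4x difference changed from E12.5 to E15.5 by -0.75 ± 0.11 (adjusted p = 2.1e-06), and by -0.29 with spike-in scaling, which was not called (adjusted p = 0.58).

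Rpl36a, whose protein lies at the exit site for transfer RNA, was called higher in females at all 4 stages, by 0.64, 0.53, 0.49 and 0.66 in order, with a standard error of 0.14. The calls of E12.5, E13.5 and E14.5 rested on single libraries. They were lost without E12.5 female replicate 2 (0.49, adjusted p = 0.087), without E13.5 male replicate 1 or female replicate 1 (down to 0.34, adjusted p = 0.15), and without E14.5 male replicate 1 or female replicate 2 (down to 0.24, adjusted p = 0.18). With spike-in scaling the calls of E12.5 (adjusted p = 0.19) and E14.5 (0.25, adjusted p = 0.44) were lost. Rpl39 was called at E12.5 (0.92 ± 0.24, limma, adjusted p = 0.012) and E15.5 (0.58 ± 0.24, adjusted p = 0.036) and not at E13.5 (0.40, adjusted p = 0.22) or E14.5 (0.31, adjusted p = 0.26). Its E12.5 call was lost whichever library was left out (adjusted p of 0.053 to 0.076), without the low-value filter (adjusted p = 0.068) and with spike-in scaling (adjusted p = 0.1). The E15.5 call was lost without either male library, without female replicate 2 (0.32, adjusted p = 0.34), without the filter and with quantile normalization. At E13.5 Rpl39 was called without female replicate 2 (0.93, adjusted p = 0.0051) and with spike-in scaling (0.86, adjusted p = 0.042), and at E14.5 without male replicate 2 (0.70, adjusted p = 0.03). Rpl10 itself was 0.14 ± 0.11 higher in females at E12.5 (adjusted p = 0.46). By E13.5 its excess was 0.39 ± 0.11 (adjusted p = 0.0073).

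**Figure D3:**
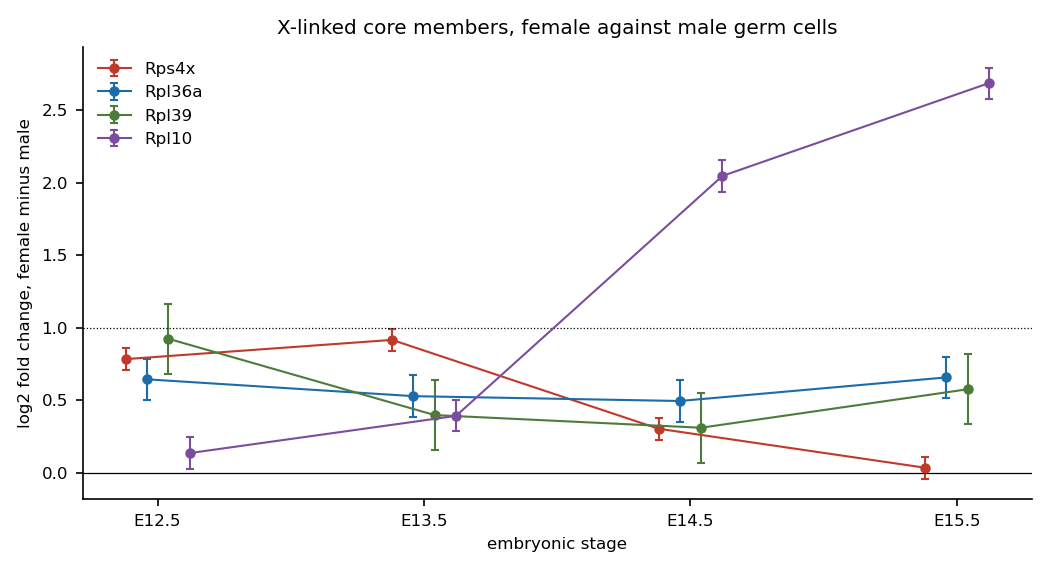
Log2 fold change of female over male germ cells (vertical axis) for the X-linked core genes at E12.5 to E15.5 (horizontal axis), with bars for the standard error and a dotted line at 1. Rps4x goes from 0.78 to 0.04 and Rpl10 from 0.14 to 2.68.

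Across the core, early sex differences were few and late ones many, as among all genes. At E12.5 5 core genes were higher in females and 1 lower, where 6.8% and 6.38% of all tested genes were called, and leaving out E12.5 male replicate 1, male replicate 2 or female replicate 2 gave 3, 2 and 2 higher. The 5 include Rps4x, Rpl36a and Rpl39, and the 1 lower was Rplp0. At E13.5 8 were higher and 6 lower, against 17.4% and 13% of all genes (6 and 13 with median centring, 10 and 0 with spike-in scaling). The 8 became 5 without E13.5 male replicate 1 or without female replicate 1. At E14.5 15 were higher and 32 lower, against 31.8% and 35.5% of all genes, with a median of -0.16 over the core and -0.08 over all genes. At E15.5 18 were higher and 30 lower, against 32.2% and 38.2%, with medians of -0.11 and -0.14. The change of the sex difference from E12.5 to E15.5 was called upward in 12 core genes and downward in 31, where 27% and 32.2% of all genes were called (16 and 24 with quantile normalization, 11 and 0 with spike-in scaling). Spike-in scaling gave 1 and 23 at E14.5 and turned the balance to 19 and 4 at E15.5. As a share of 77, the higher calls of both late stages were below those of all genes and the lower calls near them.

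Among the members lower in females, Rplp0, the base of the ribosomal stalk that recruits translation factors, was the earliest. It was at 6529 and 6824 RPM at E11.5. Females had 4323 and 3886 RPM at E12.5, 3026 and 3151 at E13.5, 2155 and 1920 at E14.5 and 1784 and 1741 at E15.5. Males had 5695 and 5805, 4906 and 4775, 4271 and 3786, and 3857 and 3568. Each female library was below each male library of its stage, and both sexes were below E11.5. The differences were -0.49, -0.65, -0.98 and -1.07 at the 4 stages, each with a standard error of 0.08 and called (limma, adjusted p of 5.4e-11 at E15.5). With spike-in scaling they kept their sign and were called only at E14.5.

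Rps2 and Rps3a, both of the small subunit, and Rpl8, of the catalytic centre of the large one, came apart later. Rps2 was at 5876 and 5749 RPM at E11.5, and at 1867 and 1499 in females and 5041 and 4588 in males at E15.5 (-1.52 ± 0.10, limma, adjusted p = 3.1e-12). Rps3a was at 4304 and 4802 RPM at E11.5, and at 2650 and 2588 in females and 6269 and 6633 in males at E15.5 (-1.30 ± 0.08, adjusted p = 1.1e-12). Rpl8 was at 4117 and 4099 RPM at E11.5, and at 1838 and 1857 in females and 4015 and 4321 in males at E15.5 (-1.17 ± 0.09, adjusted p = 1.1e-10). For all 3 the E15.5 sexes did not overlap, and for Rps3a they lay on opposite sides of E11.5 in RPM. With spike-in scaling the male change of Rps3a from E11.5 was -0.88 (limma, adjusted p = 0.0074). The sex difference changed between E12.5 and E15.5 by -1.41 ± 0.14 for Rps2 and by -1.35 ± 0.11 for Rps3a. Neither change was called with spike-in scaling (adjusted p of 0.059 and 0.071).

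Some members were higher in females. Rps23, part of the decoding centre, was at 4991 and 4727 RPM at E11.5, at 5926 and 6143 in females and 3204 and 3359 in males at E14.5, and at 5621 and 6645 and 2323 and 1854 at E15.5. It was above E11.5 in all 4 late female libraries and below in all 4 male ones, with a female excess of 0.88 ± 0.10 at E14.5 (limma, adjusted p = 4e-08). Rpl11, which also holds Mdm2 in check when ribosomes are short, exceeded males by 0.71 ± 0.09 at E14.5 (adjusted p = 4.4e-07), and Rpl19 by 0.55 ± 0.12 (adjusted p = 0.00028). With spike-in scaling these 3 differences at E14.5 kept their sign and none was called.

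From E11.5 to E15.5 more core genes fell than rose in each sex. In females 13 rose and 40 fell, where 37% of all genes rose and 32.9% fell, with a median of -0.23 against 0.10 over all genes. In males 15 rose and 29 fell, where 37.9% rose and 27.8% fell, with a median of -0.12 against 0.21. The balance depended on the scaling: quantile normalization gave 26 up and 24 down in females and 28 and 18 in males, median centring gave 5 and 43 in males, and spike-in scaling 0 and 66 in females and 0 and 77 in males. Spike-in scaling moved the median of all genes too, to -0.68 in females and -1.03 in males, with the core at -1.16 and -1.51. The core median lay below that of all genes with 3 of these scalings and close to it with quantile normalization (-0.01 against -0.02 in females, 0.02 against -0.05 in males). Both comparisons share the E11.5 libraries. Summed marker lists moved over the same time. Feeder and fibroblast markers summed to 397 to 408 RPM at E11.5, 169 to 193 in E15.5 females and 245 to 253 in males. Of these 9 markers, 5 (Col1a2, Dcn, Lum, Postn and Thy1) were at 0 at E11.5, 1 in E15.5 females and 0 in males. The E11.5 sum thus comes from the few others and does not by itself show fibroblasts. Gonadal somatic markers summed to 6.74 to 9.06, 10.3 to 15.9 and 44.5 to 44.8 RPM in the same order, with 2, 3 and 1 of 10 at 0. Blood and endothelial markers summed to 114 to 128, 119 to 388 and 187 to 337 RPM, with 2, 3 and 1 of the 9 found at 0. Their part in the core's changes was not tested.

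In females the largest falls were in Rplp0 (-1.92 ± 0.08), Rps2 (-1.80 ± 0.10), Rpl29 (-1.37 ± 0.09), Rpl38 (-1.29 ± 0.22) and Rpl8 (-1.15 ± 0.09). In males Rplp0 fell by 0.85. Rps2 fell by 0.27 in males, and was not called without E11.5 replicate 1, E11.5 replicate 2 or E15.5 male replicate 2. Large male falls were in Rpl10 (-2.53 ± 0.11), Rpl22 (-2.04 ± 0.15), Rpl11 (-1.34 ± 0.09) and Rps23 (-1.23 ± 0.10). Rpl14 and Rpl17 rose in both sexes, Rpl14 by 0.64 in females and 0.58 in males and Rpl17 by 0.54 and 0.53, and Rpl39 (0.87), Rpl36a (0.63) and Rps28 (0.57) in females. With spike-in scaling all of these 5 turned to the other side of 0 in each sex in which they had risen.

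**Figure D4:**
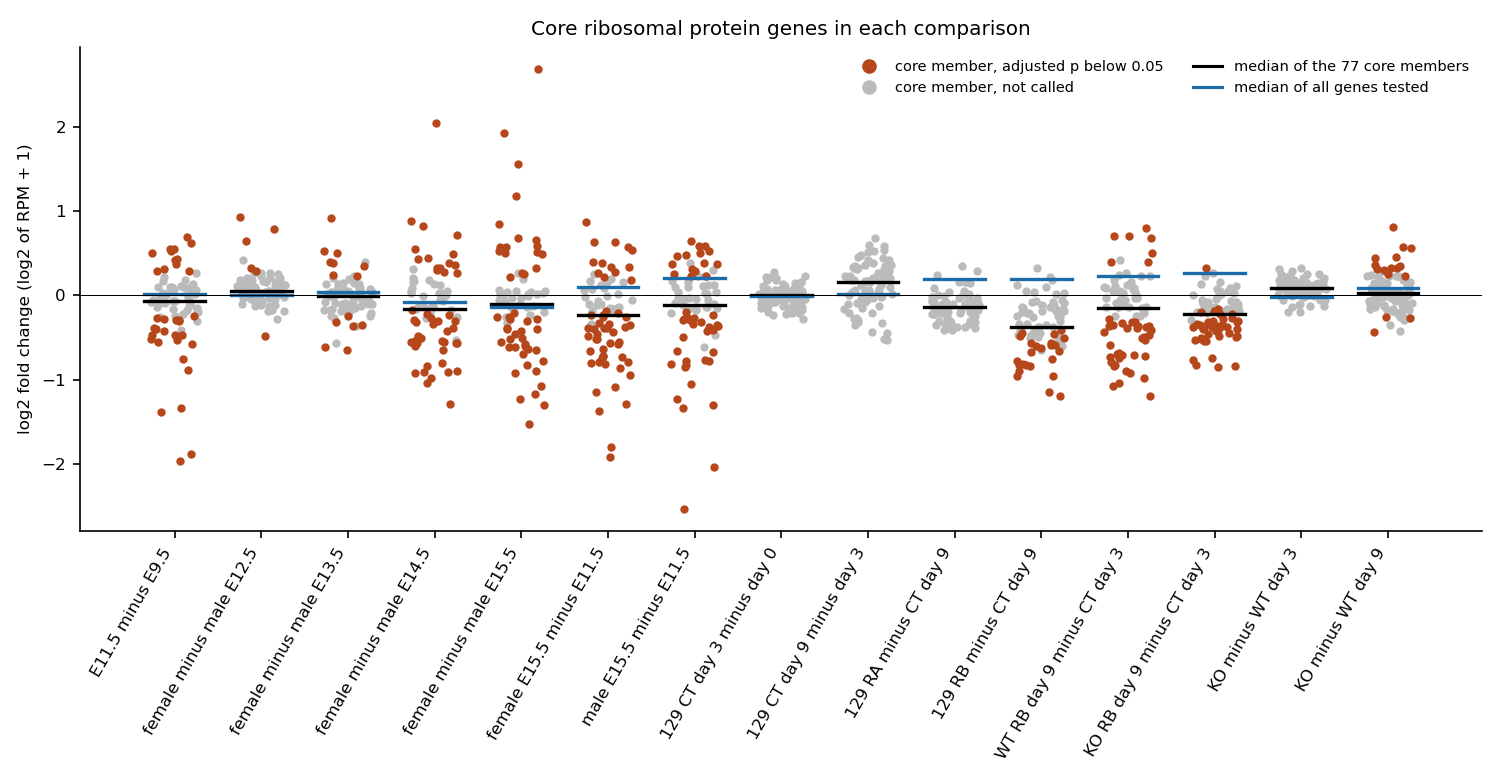
Log2 fold change of each of the 77 core genes (vertical axis) in 15 comparisons (horizontal axis), with coloured points called at an adjusted p below 0.05, a black bar for the core median and a blue bar for the median of all genes tested. Spread is widest in females against males at E15.5, with Rpl10 at 2.68 and Rps2 at -1.52, and no point is called in CT day 3 minus day 0. Balances of coloured points above and below 0 at E15.5 turn with spike-in or quantile scaling.

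In the 129S1:C57BL/6 culture, where no comparison was made at day 7, core genes were called only for RB at day 9, against CT and against RA, while both germline paralogs rose by CT day 3. No core gene was called from day 0 to CT day 3, where 7.77% of all genes were called by limma and no core gene reached an unadjusted p below 0.05. From CT day 3 to CT day 9 none was called either (3.45% of all genes, and 6 core genes higher and 2 lower at an unadjusted p below 0.05), and none in RB against CT at day 5 (0.809% of all genes, and no core gene at an unadjusted p below 0.05).

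Rpl39l was at 1.47 and 2.17 RPM at day 0 and at 42.1 and 89.2 at CT day 3 (4.48 ± 0.25, limma, adjusted p = 2.3e-11). It reached 190 and 177 RPM at CT day 9, above both day 3 libraries (1.57 ± 0.25, adjusted p = 0.0006). Rpl10l went from 12 and 3.99 RPM to 49.7 and 36.1 in the same first step (2.43 ± 0.29, adjusted p = 4.2e-06), and to 59.8 and 74.1 at CT day 9 (0.64 ± 0.29, adjusted p = 0.21). Day 0 and day 3 libraries did not overlap for either gene. At day 9 Rpl39l had 288 and 332 RPM under RA (0.75 above CT, adjusted p = 0.026, lost whichever library was left out) and 231 and 233 under RB (0.34 above CT, adjusted p = 0.25). Rpl10l had 102 and 130 RPM under RB (0.78 ± 0.29 above CT, adjusted p = 0.026), a call lost without CT replicate 1 (adjusted p = 0.16) or RB replicate 2 (adjusted p = 0.18), without the filter and under every other scaling tried (0.46, adjusted p = 0.2 with median centring). It had 117 and 103 under RA (0.71, adjusted p = 0.072).

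At day 9 RB stood below CT in 24 core genes and above it in none, where 21.2% of all genes were lower and 34% higher. The core median was -0.38, against 0.19 over all genes. The 24 became 15 without CT replicate 1 and 15 without RB replicate 2, 47 with median centring, 12 (and 2 higher) with quantile normalization and 1 with spike-in scaling. Rps2 was at 5592 and 5745 RPM under CT and at 2635 and 2491 under RB (-1.15 ± 0.20, limma, adjusted p = 4.5e-05). Rplp0 was at 6500 and 7266 RPM under CT and 3282 and 3821 under RB (-0.96 ± 0.19, adjusted p = 0.00016). Rps4x was at 6523 and 6471 RPM under CT and 3542 and 3451 under RB (-0.89 ± 0.18, adjusted p = 0.00017). Rpl8 was lower by 0.96 ± 0.21 (adjusted p = 0.00053). In Rps2, Rplp0 and Rps4x every RB library was below every CT library.

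Rpl38 had the lowest fold change (-1.19 ± 0.40, limma, adjusted p = 0.015), but its libraries overlapped, at 557 and 222 RPM under CT and 231 and 102 under RB, and the call was lost without CT replicate 1 (adjusted p = 0.34). Of the pairs that parted the sexes in the embryo, Rpl10 differed by -0.50 under RB (adjusted p = 0.12; called with median centring, at -0.82 and adjusted p = 0.028, and with the replicate number as a block, adjusted p = 0.044). Rpl22 differed by -0.19 (adjusted p = 0.41), and was called with median centring (-0.51, adjusted p = 0.039). Rpl22l1 was 0.55 lower (adjusted p = 0.024, lost without CT replicate 1 or RB replicate 2, without the filter and with spike-in scaling), and Rps27l differed by 0.08 (adjusted p = 0.84). Whether these responses differ from those in the embryo was not tested, since the experiments were fitted apart. Feeder and fibroblast markers summed to 410 to 494 RPM at CT day 9 and 184 to 203 at RB day 9 (9 markers, Lum at 0 under RB), and their part was not tested.

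Under RA alone no core gene was called against CT at day 9, where limma called 26.9% of all genes, and 4 were lower and none higher at an unadjusted p below 0.05. The core median was -0.14, against 0.20 over all genes. Median centring gave 0 higher and 9 lower, quantile normalization 1 higher and 0 lower, and spike-in scaling 0 of either. Against RA, RB was lower in 12 core genes and higher in none, where 21.1% of all genes were lower and 20.9% higher. Those 12 became 2 without RA replicate 1 and 3 without RB replicate 2. Rpl38 and Rpl41, with the largest falls (-1.04 ± 0.40 and -0.77 ± 0.28), overlapped between RB and RA and were both lost without either of those libraries.

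In the DBA/2:C57BL/6 experiment more core genes fell than rose between CT day 3 and RB day 9, in WT and in KO, except in WT with quantile normalization. In WT 7 core genes rose and 34 fell, where 35.8% of all genes rose and 24.6% fell, and in KO 1 rose and 41 fell, where 41.5% rose and 20.7% fell. Core medians were -0.15 and -0.22, against 0.23 and 0.27 over all genes. Quantile normalization gave 25 up and 20 down in WT and 17 and 24 in KO, and median centring 2 and 46 in WT. Feeder and fibroblast markers summed to 633 to 698 RPM at CT day 3 and 221 to 293 at RB day 9 in WT, and to 603 to 681 and 285 to 403 in KO (9 markers, Lum at 0). Blood and endothelial markers summed to 135 to 148 and then 21.5 to 34.4 RPM in WT, and to 121 to 206 and then 65.4 to 108 in KO (9 markers found). Hbb-y, Hba-x, Hbb-bh1 and Ptprc were at 0 in each of these groups. With 5 or 6 of the 9 at 0 in a group, the blood and endothelial sums rest on few genes. The part of either in the core's changes was not tested. Rplp0 went from 6253 and 6305 RPM to 2651 and 2819 in WT (-1.20 ± 0.12, limma, adjusted p = 7.7e-10) and fell by 0.84 ± 0.09 in KO (adjusted p = 8.1e-10). Rps4x fell by 1.05 ± 0.10 and Rpl4 by 0.92 ± 0.15 in WT. Rps23 went from 3151 and 2998 to 5054 and 4955 RPM in WT (0.70 ± 0.11, adjusted p = 1.6e-06) and rose by 0.33 ± 0.08 in KO (adjusted p = 0.00048), a direction that turned to -0.050 with median centring. Rpl39l rose by 0.99 ± 0.21 (adjusted p = 0.00015) and Rpl10l by 0.82 ± 0.21 (adjusted p = 0.0015) in WT.

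At CT day 3, before the factors, no core gene was called between knockout and wild type, and 1 of all genes tested was (0.00819%). At an unadjusted p below 0.05 in limma, 2 core genes were higher in KO and 1 lower. By sign alone, 64 of the 77 core genes were higher in KO and 13 lower, with a core median of 0.085 against -0.015 over all genes. Core shares were 19.52 to 21.33% in KO and 19.38 to 19.49% in WT, so an absence of calls does not show that the genotypes were alike. At RB day 9 13 were higher in KO and 3 lower, where 21.9% and 16.2% of all genes were called, so both shares are below those of all genes. Median centring gave 5 and 6, quantile normalization 11 and 9, and leaving out WT RB day 9 replicate 2 gave 6 and 0. The difference itself changed from day 3 in 7 core genes, 5 upward and 2 downward, where 22.3% of all genes were called. Median centring gave 3 upward and 5 downward there, and quantile normalization 5 of each.

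Rps2 had 2270 and 1967 RPM in WT at day 9 and 3188, 3758, 3656 and 4248 in KO (SK1, SK1, SK2, SK3). All 4 KO libraries were above both WT libraries, and the difference was 0.81 ± 0.12 (limma, adjusted p = 2.2e-06). It exceeded that of day 3 by 0.76 ± 0.17 (adjusted p = 0.0012). Rpl8 had 1806 and 1792 RPM in WT and 2413, 2822, 2699 and 2721 in KO, again without overlap (0.56 ± 0.10, adjusted p = 2.7e-05; 0.62 ± 0.14 above the difference of day 3, adjusted p = 0.0012). Rpl15 (0.57), Rps3 (0.46) and Rpl6 (0.45) were also higher. Rplp0 was 0.31 ± 0.11 higher (adjusted p = 0.021), a call lost with median centring and without either WT library, the second SK1 library or the SK3 library.

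Rps20 had 3673 and 4065 RPM in WT and 2561, 2863, 2958 and 3030 in KO, without overlap (-0.44 ± 0.11, limma, adjusted p = 0.0015, and adjusted p = 0.055 without WT replicate 2). Rps23 had 5054 and 4955 RPM in WT and 3810, 4277, 4143 and 4497 in KO (-0.26 ± 0.09, adjusted p = 0.027, lost without either WT library). Rpl19 was lower by 0.27 ± 0.09, a call lost without either WT library and without the SK2 library (limma, adjusted p = 0.058 without SK2). Rpl39l (0.12, adjusted p = 0.64), Rpl10l (0.16, adjusted p = 0.54) and Rps27l (-0.03, adjusted p = 0.91) were not called. At RB day 9 the summed feeder and blood markers given above were each higher in KO than in WT on average, with the WT and KO ranges overlapping for feeder markers and apart for blood markers. Of the 9 blood and endothelial markers found, 6 were at 0 in WT and 5 in KO. Germ cell markers summed to 4668 to 5304 RPM in WT and 3001 to 3144 in KO (9 markers, none at 0). The part of these in the differences between KO and WT was not tested.

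The E9.5 libraries differed from all others in their shortest members. The 10 core genes of shortest coding sequence (138 to 315 bases, against 318 to 1257 for the other 66 with a length) are Rpl36, Rpl37, Rpl37a, Rpl38, Rpl39, Rpl41, Rps21, Rps27, Rps28 and Rps29. They held 7.61 and 7.73% of the core signal at E9.5, and 3.27 to 5.23% in the embryo libraries of later stages. In the 129S1:C57BL/6 replicated groups the libraries ran from 2.77 to 4.75%, and in the Stra8 experiment from 1.89 to 2.87%, so the ranges of these 2 experiments overlapped. This set was chosen after its values were seen.

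Between E9.5 and E11.5 22 core genes fell and 12 rose, where 10.4% of all genes fell and 12.1% rose. Median centring gave 28 and 8. Of the 10 short genes 7 fell and none rose, with a median of -0.68. Of the other 66, 12 rose and 15 fell, with a median of 0.00. Rpl39 went from 1191 and 1323 RPM to 304 and 338 (-1.96 ± 0.24, limma, adjusted p = 2.2e-06) and Rps27 from 1845 and 1797 to 516 and 470 (-1.88 ± 0.24, adjusted p = 2.9e-06). At E10.5 Rpl39 already had 284 and 283 RPM and Rps27 469 and 477. With E10.5 in place of E9.5, a comparison added after the data were seen, 2 core genes fell and none rose. The count of 22 became 14 and 13 without each E9.5 library and 11 without E11.5 replicate 1. Rplp1, a stalk protein, rose by 0.62 ± 0.09.

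Other values set the E9.5 libraries apart. Blood and endothelial markers summed to 3590 to 3727 RPM (9 of 10 markers found, none at 0), against 298 to 299 at E10.5 and 114 to 128 at E11.5. Spike-in transcripts summed to 1114 and 475 RPM, below the 2000 RPM taken as holding spike-in. The part of either in the levels of the short members, or in the rises of Rpl10l and Rpl39l from E9.5, was not tested.

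**Figure D5:**
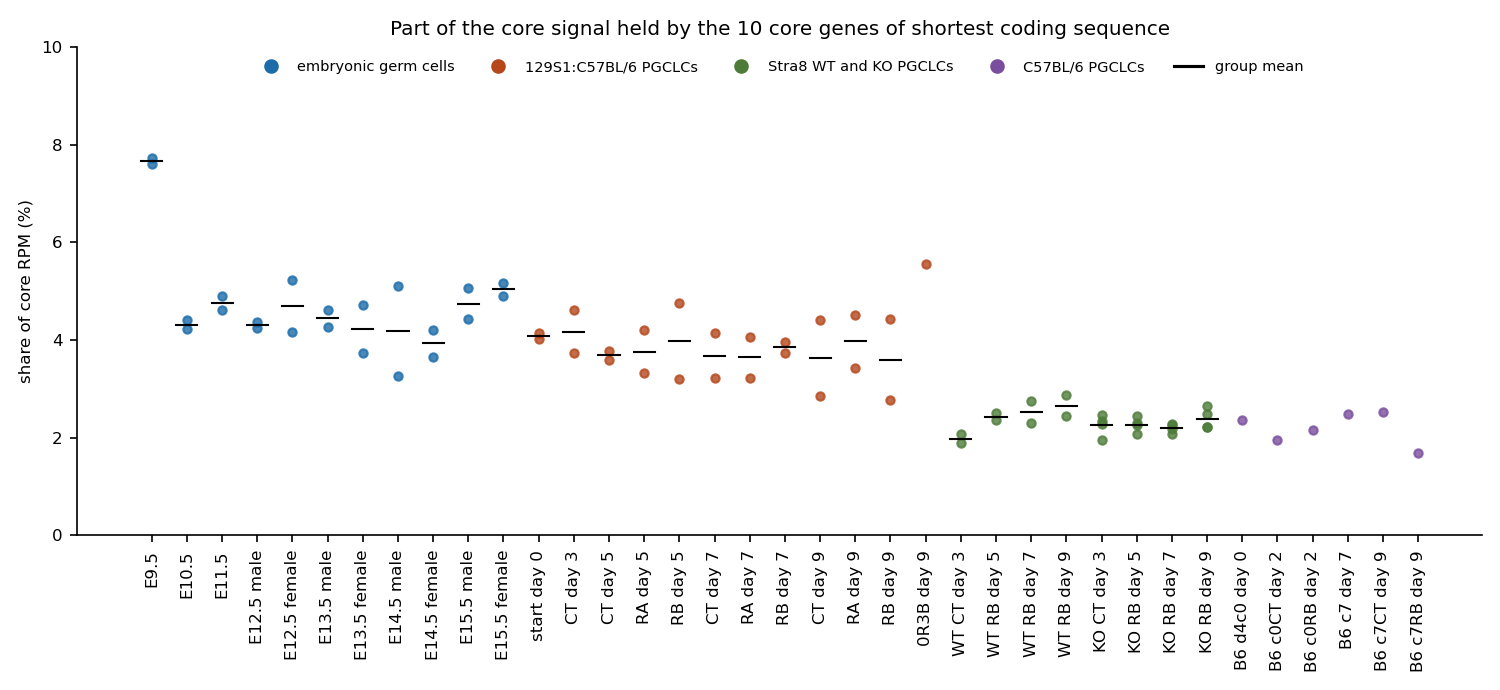
Share of the core RPM held by the 10 core genes of shortest coding sequence (vertical axis, %) in each library, by group (horizontal axis), with bars for group means. The E9.5 libraries (7.61 and 7.73%) lie above all others, and those of the Stra8 experiment (1.89 to 2.87%) reach into the range of the 129S1:C57BL/6 groups.

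Most genes that build the ribosome were lower in E15.5 females than at E11.5. Of 65 genes of ribosome assembly and RNA polymerase I, 7 were higher and 43 lower in E15.5 females than at E11.5 (median -0.98, against 0.10 over all genes, of which 37% were higher and 32.9% lower). In E15.5 males 17 were higher and 29 lower (median -0.23, against 0.21, with 37.9% and 27.8% of all genes). Female E14.5 was above male in 14 and below in 42 (median -0.78, against -0.08, with 31.8% and 35.5% of all genes). In each of these comparisons more of the 65 were lower than higher under every scaling run. Rrp9 (131.8 to 5.67 RPM in females from E11.5 to E15.5) and Bysl (547 to 44.2 RPM), both needed to process ribosomal RNA, fell furthest, while Ltv1, which helps to export and mature the small subunit, rose from 124 to 397 RPM. RB at day 9 was above CT in 9 of the 65 and below in 28 (median -0.39, against 0.19, with 34% and 21.2% of all genes). At RB day 9 KO was above WT in 21 and below in 6 (median 0.24, against 0.09, with 21.9% and 16.2% of all genes).

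Of 22 other translation genes with a TOP element, 3 were higher and 14 lower in E15.5 females than at E11.5, where 37% and 32.9% of all genes were (median -0.47, against 0.10). In RB against CT at day 9 2 were higher and 9 lower (34% and 21.2% of all genes; median -0.40, against 0.19), and in KO against WT 7 and 2 (21.9% and 16.2%; median 0.18, against 0.09). In E15.5 males 7 were higher and 10 lower than at E11.5, where 37.9% and 27.8% of all genes were, a balance that quantile normalization turned to 9 and 8. Hnrnpa1, a splicing factor, fell from 1287 to 94.9 RPM in females and was at 1697 under CT and 570.0 under RB. Naca, which guards nascent chains, fell from 1441 to 491 RPM and was at 1466 and 694. Among 18 regulators of TOP translation 5 were higher and 9 lower in E15.5 females than at E11.5 (37% and 32.9% of all genes, median -0.43, against 0.10). Eif4ebp1, the translation repressor that mTOR switches off, went from 307 to 9.78 RPM and Mycn, which drives ribosome production, from 154 to 9.32, while Tsc1, which restrains mTOR, went from 15.6 to 81.2. In KO against WT at RB day 9 Eif4ebp1 was higher by 1.57 and Mycn by 1.16. The 75 mitochondrial ribosomal proteins tested were called in both directions. In E14.5 females 27 were higher and 25 lower than in males, near the 31.8% and 35.5% of all genes, and in RB against CT at day 9 20 were higher and 11 lower, below the 34% and 21.2% of all genes.

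The 7 single libraries have no replicate and are given as values. The 0R3B library had the lowest core share of all 75, 14.4%, with Rplp0 at 1366 RPM, Rps2 at 1072, Rpl8 at 1110 and Rps4x at 1115, each below both RB day 9 libraries of the line. Rps27l was at 1011 RPM there, above all other libraries. In the C57BL/6 line the share was 21.3% at day 0, 18.0% and 22.2% in the libraries named c0CT and c0RB (day 2), 21.0% at day 7, and 21.2% and 18.5% in c7CT and c7RB (day 9). Rpl10l was at 3.69 RPM at day 0 and at 81.8 to 214 in the 5 later libraries.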

How the data were processed

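The deposited tables hold 1 value per gene and library, a reads-per-million (RPM) signal that the authors computed, as the name of the deposited table states. Spike-in RNAs are listed on the same scale on top of the genes. Per the submitters' processing notes, the build was mm10 and the tools were Cufflinks 2.2.0, Bowtie 1.0.1, TopHat 1.4.1 and cutadapt 1.11. The counting rule and strand setting are not given in the sources used here. Low values stepped in whole reads for only 79.9 to 92.2% of genes (tolerance 0.05), so no count test was run. Values below 0.001 were set to 0 (2777 values). Depth, estimated from those steps, was 1.08 to 15.6 M reads, and counting floors cover counting error only.

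The members and gene lists were chosen with earlier results of these data known. Embryo, 129S1:C57BL/6 and Stra8 experiments were fitted apart with limma 3.58.1 (R 4.3.3) on log2(RPM + 1), with trended empirical Bayes, for genes of at least 5 RPM in at least 2 libraries (12567, 11873 and 12206 genes; 11, 11 and 16 residual degrees of freedom). The median residual SD was 0.269, 0.276 and 0.303. P-values were adjusted by Benjamini-Hochberg over all genes tested. The scripts were tested on simulated data. Alternatives were another pseudocount, no low-value filter, median centring, quantile normalization, RPM recomputed without the family, spike-in scaling, a replicate block, 1 value for line SK1, and leaving out each library. Spike-in RNA was held by 58 libraries and not by 17. Its total varied between replicates, at 11817 and 21550 RPM in E12.5 females. It went from 11238 to 17606 RPM at E13.5 to 33174 to 40347 RPM at E14.5, the step at which the reporter changes. With spike-in scaling, genes called between the sexes at E12.5 went from 1656 to 663, so calls lost under it at that stage are not particular to the members. Calls over all genes rose under it at E13.5 (3825 to 4141), in males from E11.5 to E15.5 (8257 to 8785) and for RB against CT at day 5 (96 to 117). They fell in the other comparisons for which it was run.

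Named by rule were the paralog pairs, X-linked members, stalk genes, Rps27a, Rpsa and Rps19bp1. The rule added, in main comparisons, up to 5 called core genes each way with the largest change and at least 20 RPM in the higher group, 2 each way in the others, the 3 most and 3 least variable members, and up to 3 called genes of each list each way. Some genes that this rule names are not reported here. Other named genes were chosen after their values were seen. Python 3.11.15, pandas 2.3.3, numpy 2.4.6, Biopython 1.88 and matplotlib 3.10.9 were used.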

Additional observations from a re-analysis of the deposited data

Results flagged for a closer look

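In groups of 4 libraries, 1 library stood far from the other 3 in 9 of 108 cases tested. Chance alone gives about 1 in 20 for independent cases. These cases are many genes in the same libraries and are not independent, so the 9 cannot be weighed against that rate. Only the KO groups hold 4 libraries, so the cases tested are all KO groups. At CT day 3 the second SK1 library held 21.3% of its signal in the core, against 19.5 to 19.7% in the others, and 2 of its members also stood apart, Rpl22l1 at 1523 RPM (944 to 1026 in the others) and Rps21 at 850 RPM (644 to 667). Rpl19 was low in the same library, at 2068 RPM against 2207 to 2229. At RB day 5 the second SK1 library held 23.6% in the core, against 19.2 to 19.8%, and Rps20 was at 3975 RPM in it (2876 to 3016 in the others). In that group Rpl39l was at 190 RPM in SK3 (265 to 275 in the others). Rpl19 was at 2451 RPM in SK3 at RB day 7 (2098 to 2156 in the others), and Rpl38 at 127 RPM in SK3 at RB day 9 (92.3 to 94.2).

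The difference between females and males changed from E12.5 to E15.5, by limma's test of that change, in 9 named members. It grew towards females in Rpl10 (2.55 ± 0.15, adjusted p = 2.3e-12), Rps27l (2.10 ± 0.26, adjusted p = 4.1e-07) and Rpl22 (1.71 ± 0.21, adjusted p = 3.5e-07). It moved towards males in Rpl39l (-2.51 ± 0.24, adjusted p = 7.4e-09), Rpl10l (-2.22 ± 0.21, adjusted p = 6e-09) and Rpl22l1 (-1.60 ± 0.13, adjusted p = 6.2e-10). Rps2 (-1.41 ± 0.14, adjusted p = 1.3e-08), Rps3a (-1.35 ± 0.11, adjusted p = 7.5e-10) and Rps4x (-0.75 ± 0.11, adjusted p = 2.1e-06) moved the same way, and these 3 were not called with spike-in scaling (-0.95, -0.89 and -0.29, adjusted p of 0.059, 0.071 and 0.58).

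The difference between KO and WT changed from CT day 3 to RB day 9 in 4 named members, by limma's test of that change. Rps2 (0.76 ± 0.17, adjusted p = 0.0012) and Rpl8 (0.62 ± 0.14, adjusted p = 0.0012) moved up in KO. Rps20 (-0.46 ± 0.15, adjusted p = 0.027) and Rps23 (-0.38 ± 0.13, adjusted p = 0.038) moved down, and neither was called without a low-value filter (adjusted p of 0.061 and 0.067). Rps20 lost its call without WT CT day 3 replicate 1, WT RB day 9 replicate 2, KO CT day 3 SK1 replicate 2 or KO RB day 9 SK1 replicate 1 (adjusted p of 0.055 to 0.15). Rps23 lost its call without any of the 4 WT libraries, KO CT day 3 SK1 replicate 2 or SK2, or KO RB day 9 SK1 replicate 1 or SK2 (adjusted p of 0.051 to 0.14).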

How the results depend on the processing

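Of 242 alternative values of counts and shares, 200 kept their direction and stayed close, 33 moved and 9 turned the balance; of 1694 values of named members, 1544 kept their call, 130 lost it, 8 gained one and 12 changed sign. Where a value moved, the cause was not tested. Taken relative to the spike-in total in place of the gene total, core RPM at E15.5 over that at E11.5 was 0.443 in females and 0.340 in males, and by the median member's RPM it was 0.962 in males. WT RB day 9 over CT day 3 was 0.850 over a wider gene set and 0.825 by the median member. With spike-in scaling, females against males gave 0 higher core genes at E12.5, 4 lower against 19 higher at E15.5, and 0 lower against 11 higher for the change between those stages. From E11.5 to E15.5 that scaling gave 66 lower in females and 77 in males, and at day 9 it gave 1 lower for RB against CT and 1 for RB against RA. It turned Rpl39 (-0.056), Rpl14 (-0.29), Rpl36a (-0.30), Rps28 (-0.36) and Rpl17 (-0.39) in females, and Rpl39l (-0.28), Rpl6 (-0.74), Rps27 (-0.79), Rpl14 (-0.80), Rpl17 (-0.86) and Rps3a (-0.88) in males. Spike-in scaling was not run for the E9.5 comparison or the Stra8 experiment, where libraries lack spike-in. Quantile normalization gave 24 lower and 26 higher in females and 18 and 28 in males from E11.5 to E15.5, 20 lower and 25 higher in WT and 24 and 17 in KO over the culture, and at day 9 12 lower for RB against CT, 5 for RB against RA and 1 higher for RA against CT. Median centring gave 6 higher and 13 lower for the sexes at E13.5, 47 lower for RB against CT, 5 higher and 6 lower for KO against WT at day 9, 3 and 5 for the change from day 3, 71 lower in KO over the culture, and Rps23 at -0.050 there. Without a low-value filter 7 were lower for RB against RA. With E10.5 in place of E9.5, 2 fell. Leaving out 1 library at a time gave 11 to 16 lower (of 22) for E11.5 against E9.5, 2 to 4 higher (of 5) for the sexes at E12.5 and 5 to 7 (of 8) at E13.5, 15 to 32 lower for RB against CT, 2 to 17 for RB against RA, 6 to 14 higher for KO against WT at day 9 and 3 to 6 for its change from day 3. Without E13.5 female replicate 1 the sexes gave 5 higher and 8 lower.

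Libraries with the same replicate number did not deviate together throughout. The median correlation of their deviations was 0.002 for embryo libraries, 0.069 for those of 129S1:C57BL/6 and 0.066 for those of the Stra8 experiment, and it passed 0.1 in 0 of 55, 11 of 55 and 8 of 28 pairs of groups, so the numbers were not taken to pair libraries. With the replicate number as a block, 4 core genes were higher at CT day 9 than at day 3 (2 lower), and 20 were lower in RB than in RA at day 9. The block also gave 2 lower (from 0) for RA against CT, 5 lower (from 3) for KO against WT at day 9, and 6 (from 2) for the downward change of that difference from day 3. Other counts of core genes moved by less than 1.5 times under the block, except 2 (from 1) that rose in KO over the culture. Depth limits Rpl39l at day 0, whose 1.47 and 2.17 RPM lie near the 0.88 and 1.09 RPM that 3 reads are worth there.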

Other observations

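Of 27 initiation factors, 11 were higher and 14 lower in females than in males at E14.5 by limma, where 31.8% and 35.5% of all genes were (median -0.28, against -0.08). In E15.5 females 8 were higher and 15 lower than at E11.5, where 37% and 32.9% of all genes were (median -0.52, against 0.10). Eif2s2 and Eif2s1, subunits of the factor that brings the initiator transfer RNA, were at 612 and 331 RPM in females against 212 and 126 in males (differences of 1.53 and 1.39, adjusted p = 9.1e-12 and 4.1e-11). Eif3b, a subunit of the scaffold on the small subunit, was at 184 RPM in females against 637 in males (-1.79, adjusted p = 1.8e-13). Among mitochondrial ribosomal proteins, Mrpl51 was at 162 RPM in females against 44.7 in males and Mrpl23 at 108 against 735. Larp4, which binds poly(A) tails, was at 274 RPM in females against 43.6 in males.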
